A study of Homo sapiens with 6 samples.

Results

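The genes described here encode the 6 BAG proteins, BAG1 to BAG6, and 3 small heat shock proteins, HSPB1, HSPB8 and CRYAB. They were picked by gene symbol, 9 of the 63086 genes in the deposited table, and all 9 were among the 16046 genes with enough counts to be tested. RNA was sequenced from 3 libraries of DUS1L knockout A375 cells and 3 libraries of wild-type A375 cells, described by the submitters as biological replicates. A375 is a human melanoma cell line with a BRAF mutation, and DUS1L encodes an enzyme that places dihydrouridine in tRNAs. Knockout cells had been edited with CRISPR/Cas9 at the DUS1L locus and selected as clones, and wild-type cells were kept in parallel without that targeting. The number of clones is not given in the sources used here, so an effect of the knockout and a difference between a clone and the parental cells cannot be told apart.

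Most BAG proteins carry a domain that binds the ATPase domain of HSP70 chaperones and speeds the exchange of ADP for ATP, which releases the client protein. The rest of each protein differs and ties it to other work, such as the proteasome, autophagy, receptor silencing or the insertion of membrane proteins. Small heat shock proteins hold unfolded proteins in solution without using ATP and pass them on to HSP70. BAG3 joins both kinds of chaperone, because it binds HSP70 through its BAG domain and HSPB8 through short motifs elsewhere, and the complex delivers damaged proteins such as filamin to autophagy.

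The 9 genes were proposed with results of this same comparison in view, among them the higher level of BAG3 in knockout cells. Their fold changes and adjusted p-values (edgeR quasi-likelihood test, adjusted over all 16046 genes) are therefore a description of these libraries and are not independent support for a change in the family. Levels are given as CPM, counts scaled to the size of each library after TMM normalisation, and in bulk RNA fewer cells that express a gene and less RNA per cell cannot be told apart.

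Libraries held between 17121315 and 18861514 estimated counts, so that 3 counts amounted to between 0.159 and 0.176 CPM. The DUS1L transcript was at 55.4, 54.7 and 53.1 CPM in knockout libraries, against 79.95, 75.7 and 77.0 CPM in wild-type libraries (log2 fold change -0.51, adjusted p = 1.7e-06), so the targeted transcript was lower but still present. Knockout and wild-type libraries were separated on the first principal component (53.0% of the variance), and wild-type replicate 1 lay apart from the other libraries on the second (13.7%). The 9 melanocyte lineage markers summed to between 484 and 549.9 CPM in knockout and between 618 and 653 CPM in wild-type libraries. Nearly all of each sum came from SOX10. The lineage factor SOX10 was called lower, at 480.6 ± 33.8 CPM in knockout and 604 ± 16.9 CPM in wild-type cells (SD, n = 3 each, adjusted p = 5.11e-05, edgeR). S100B was called lower as well, at 4.26 ± 0.519 CPM in knockout and 7.94 ± 0.871 CPM in wild-type cells. MITF was at 20.6 ± 1.2 CPM in knockout and 19.6 ± 0.749 CPM in wild-type cells and was not called, nor were S100A1 and TYRP1. The pigmentation genes PMEL, MLANA and DCT had at most 9 counts in any library and TYR had 0. Leukocyte markers summed to between 7.45 and 13.02 CPM in knockout and between 3.41 and 4.59 CPM in wild-type libraries, with ITGAM called higher (8.09 ± 2.93 CPM in knockout and 2.55 ± 0.212 CPM in wild-type cells) and CD3E at 0. Endothelial markers summed to at most 3.99 CPM in knockout and 3.84 CPM in wild-type libraries. Fibroblast markers summed to between 80.8 and 179.5 CPM in knockout and between 33.6 and 98.0 CPM in wild-type libraries, and none of the 6 was called. Keratinocyte markers summed to between 50.1 and 59.4 CPM in knockout and between 53.2 and 58.9 CPM in wild-type libraries, nearly all of it from KRT10, while KRT5 and KRT1 were at 0. The part of any such cells in the results was not tested.

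BAG3, HSPB1, HSPB8 and CRYAB were higher in DUS1L knockout cells by about 2-fold or more, BAG1 was higher by a small amount, and the other 4 BAG genes were not called. In all, 5 of the 9 genes were called higher and 0 lower at an adjusted p under 0.05, a rule that called 41.2% of all tested genes, with 20.5% of tested genes higher and 20.7% lower. All 3 small heat shock genes and 2 of the 6 BAG genes were among the 5. The test against a change of 1.5-fold, which called 3.58% of all tested genes and 2.31% as higher, called 4 of the 9, BAG3, HSPB8, CRYAB and HSPB1, with HSPB1 at an adjusted p of 0.0497 (edgeR). The 3 knockout values lay outside the range of the 3 wild-type values in 6 of the 9 genes, against 51.1% of all tested genes, and in all 6 they lay above it, against 25.4%. The median log2 fold change was 0.22 over the 9 genes, 0.09 over the 6 BAG genes and 0.00 over all tested genes. CRYAB is part of each of these counts but reached the minimum count through the knockout libraries. For that reason, and since the genes were chosen with this comparison known, nothing is read from these counts.

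**Figure D1:**
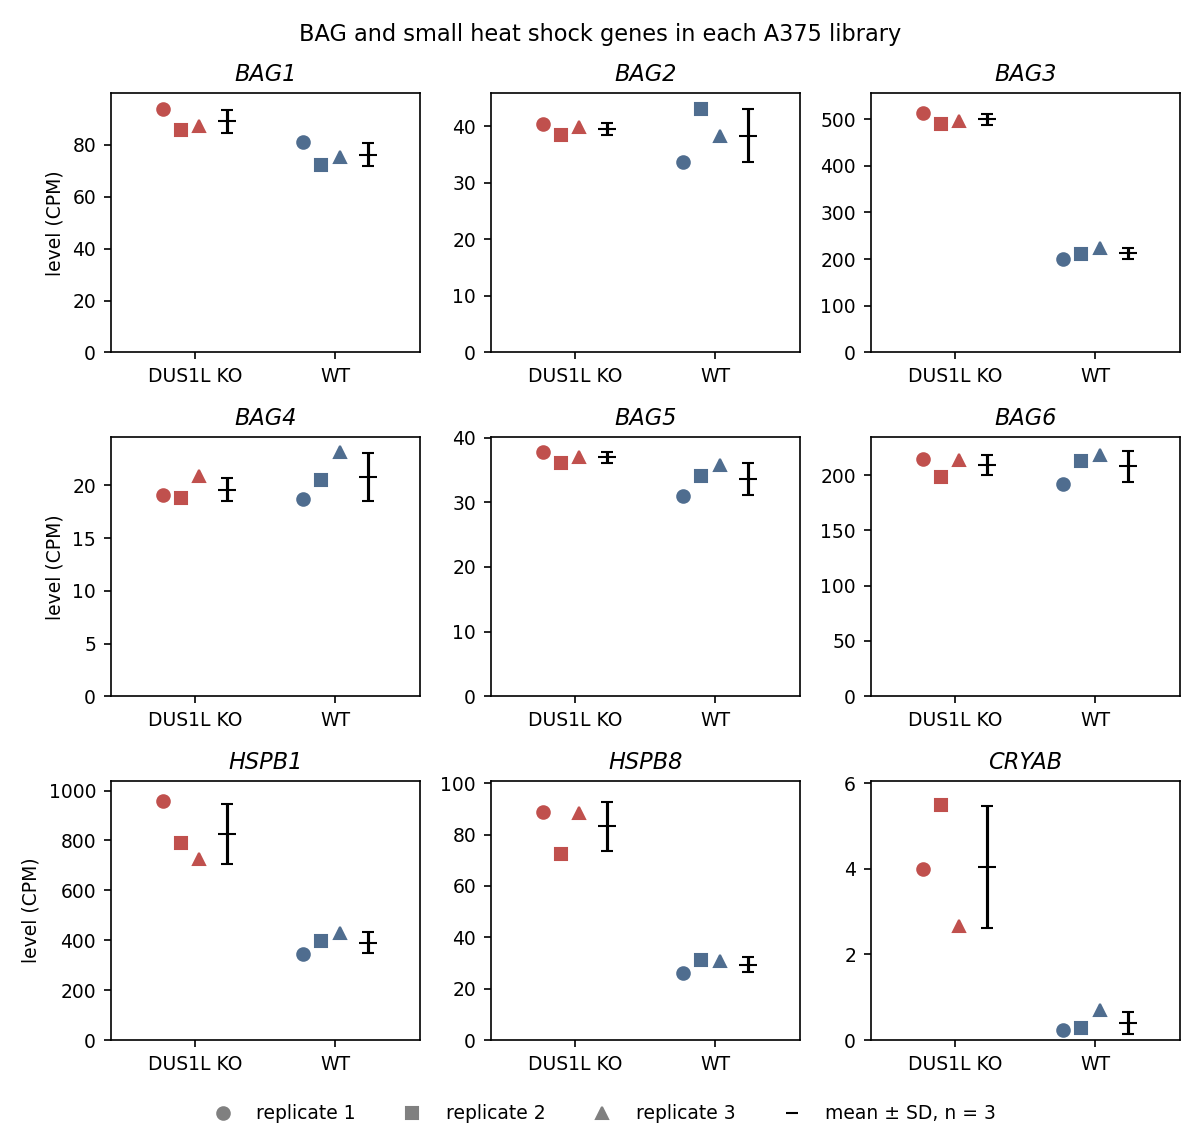
Level of each gene in CPM (vertical axis, from 0) in every library, with knockout libraries in red on the left and wild-type libraries in blue on the right. Symbols mark the replicate number and the bars give the mean ± SD of 3 libraries. Knockout and wild-type points are widely separated for BAG3, HSPB1, HSPB8 and CRYAB, narrowly separated for BAG1 and BAG5, and overlap for BAG2, BAG4 and BAG6.

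BAG3 was the BAG gene with the largest difference. Its level was 513, 489 and 496 CPM in the knockout libraries, against 199.8, 212 and 224 CPM in the wild-type libraries. The groups were far apart, and the lowest knockout value was 2.18 times the highest wild-type value. The log2 fold change was 1.23 (SE 0.05, 95% interval 1.12 to 1.35, adjusted p = 9.83e-13, edgeR), which is a 2.35-fold higher level and exceeds that of 97.5% of tested genes. The replicates were tight, with a coefficient of variation of 2.46% in knockout and 5.83% in wild-type libraries. All BAG3 counts were whole numbers, so none had been divided among genes, and no other annotated gene overlaps it. BAG3 (ENSG00000151929.10) lies on the plus strand of chromosome 10 from 119651380 to 119677819 (GRCh38).

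The promoters of BAG3 and of most of the other genes described here were searched for the heat shock element, the inverted repeat bound by heat shock factors. It was searched as a pair of units, TTCNNGAA or GAANNTTC, each of which reads the same on both strands, and as an array of 3 such units in alternation. Windows of 250 bases before to 50 bases after the start site came from RefSeq (GRCh38.p14). For 7 of the 9 genes, 9 windows were searched. The promoters of BAG4 and of CRYAB, which was higher, were not analysed here. Of all 35116 RefSeq windows, 13.5% held a pair and 0.49% held an array of 3 units. A pair was found in 3 of the 7 genes, BAG2, HSPB1 and HSPB8, which have 1 window each, and an array in 0 of them. The shares over RefSeq count windows, not genes. Only exact matches were searched, so a lack of a match does not show that an element is absent. These letters are thus present at HSPB1 and HSPB8, which were higher, and at BAG2, which was not called. They are absent from the windows of BAG1, which was called higher, and of BAG5 and BAG6, which were not called. Nor are they in the BAG3 window, which is 75.3% G and C against a median of 58.7% for all windows. The 250 bases before the BAG3 start, chr10:119651130-119651379 on the plus strand, are shown because BAG3 had the largest difference among the BAG genes.
BAG3: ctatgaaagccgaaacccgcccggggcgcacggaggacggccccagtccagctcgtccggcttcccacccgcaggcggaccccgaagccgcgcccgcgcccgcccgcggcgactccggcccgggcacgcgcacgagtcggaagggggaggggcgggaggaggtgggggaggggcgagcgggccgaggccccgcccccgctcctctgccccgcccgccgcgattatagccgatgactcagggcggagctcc

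BAG1 was the other BAG gene called higher. BAG1 is a nucleotide exchange factor with a ubiquitin-like domain that links HSP70 to the proteasome. It was at 93.9, 85.8 and 87.2 CPM in knockout libraries, against 81.2, 72.3 and 75.1 CPM in wild-type libraries. The groups did not overlap, but the lowest knockout value was only 1.06 times the highest wild-type value. The log2 fold change was 0.22 (SE 0.06, adjusted p = 0.00803, edgeR), a 1.17-fold higher level. That call was lost without knockout replicate 1 (log2 fold change 0.18, adjusted p = 0.0618) and without wild-type replicate 2 (0.18, adjusted p = 0.0586). CHMP5, whose start lies 159 bases from that of BAG1 on the opposite strand, was at 139 ± 1.65 CPM in knockout and 150.5 ± 5.35 CPM in wild-type cells (adjusted p = 0.0915).

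BAG5, which carries several BAG domains and has been described as an inhibitor of the ubiquitin ligase parkin, was at 37.8, 36.1 and 37.0 CPM in knockout libraries, against 30.9, 34.1 and 35.7 CPM in wild-type libraries. The groups were next to each other without overlap, and BAG5 was not called (log2 fold change 0.14, 95% interval -0.03 to 0.30, adjusted p = 0.171, edgeR). Its start lies 303 bases from that of COA8, a mitochondrial protein gene on the opposite strand, which was called higher at 23.1 ± 1.58 CPM in knockout and 17.2 ± 0.475 CPM in wild-type cells (log2 fold change 0.43, adjusted p = 0.00151). COA8 counts were fractional in all 6 libraries, so they rest on a division of reads, while BAG5 counts were whole. KLC1, a kinesin light chain gene that overlaps BAG5 on the opposite strand, was not called, at 93.65 ± 6.69 CPM in knockout and 101.65 ± 8.88 CPM in wild-type cells (log2 fold change -0.12, adjusted p = 0.19). The annotated gene ENSG00000256500, which starts 305 bases away on that strand, was not called either, at 3.19 ± 1.1 CPM in knockout and 4.9 ± 4.42 CPM in wild-type cells.

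BAG2, which inhibits the ubiquitin ligase CHIP, was at 40.3, 38.4 and 39.8 CPM in knockout libraries, against 33.7, 43.1 and 38.2 CPM in wild-type libraries. The wild-type values spread to both sides of the knockout values (log2 fold change 0.04, 95% interval -0.14 to 0.22, adjusted p = 0.726, edgeR). BAG2 shares 2842 bases with RAB23 on the opposite strand, and its counts were fractional in all 6 libraries. The sum of both genes was 48.1, 52.4 and 49.8 CPM in knockout libraries, against 46.2, 54.5 and 49.1 CPM in wild-type libraries, which also overlap. The 250 bases before the BAG2 start, chr6:57172076-57172325 on the plus strand, hold 1 pair (capitals) from base -124 to -117 and are shown because the level of the gene overlapped between genotypes.
BAG2: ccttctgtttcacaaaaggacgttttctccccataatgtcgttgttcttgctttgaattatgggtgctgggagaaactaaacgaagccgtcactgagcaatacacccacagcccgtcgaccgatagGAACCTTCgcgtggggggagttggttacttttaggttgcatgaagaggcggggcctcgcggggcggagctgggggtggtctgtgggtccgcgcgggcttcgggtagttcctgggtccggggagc

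BAG4 and BAG6 overlapped between genotypes as well. BAG4, also known as silencer of death domains for its binding to the TNF receptor TNFRSF1A, was at 19.1, 18.8 and 20.9 CPM in knockout libraries, against 18.7, 20.5 and 23.1 CPM in wild-type libraries (log2 fold change -0.08, 95% interval -0.30 to 0.13, adjusted p = 0.548, edgeR). BAG6, a ubiquitin-like protein that shields hydrophobic segments and hands tail-anchored proteins to the endoplasmic reticulum, was at 214, 199 and 214 CPM in knockout libraries, against 192, 213 and 219 CPM in wild-type libraries (log2 fold change 0.01, 95% interval -0.11 to 0.13, adjusted p = 0.937, edgeR). APOM, an apolipoprotein gene that overlaps BAG6 on the opposite strand, was at 0.412 ± 0.129 CPM in knockout and 0.764 ± 0.172 CPM in wild-type cells and was not called. For BAG2, BAG4, BAG5 and BAG6 the upper end of the 95% interval was at most a 1.23-fold higher level in knockout cells, below the lower end of the BAG3 interval at 2.18-fold.

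HSPB8, the small heat shock partner of BAG3, had the larger fold change of the pair. Its level was 88.9, 72.3 and 88.5 CPM in knockout libraries, against 26.2, 31.2 and 30.8 CPM in wild-type libraries. Each knockout library was at least 2.32 times the highest wild-type library. The log2 fold change was 1.4996 (SE 0.09, 95% interval 1.31 to 1.69, adjusted p = 6.53e-10, edgeR), a 2.83-fold higher level. HSPB8 (ENSG00000152137.8) lies on the plus strand of chromosome 12 from 119171555 to 119224855. An annotated processed pseudogene on the same strand within those bounds, ENSG00000213144, had 12.01, 16.02 and 14.01 estimated counts in knockout libraries, against 1.00, 3.01 and 2.00 in wild-type libraries. It reached the minimum count through the knockout libraries alone, so nothing is read from its difference.

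HSPB1, also called HSP27, is a small heat shock protein that is phosphorylated downstream of p38 kinase and acts on actin filaments. Its level was 958, 789.7 and 728 CPM in knockout libraries, against 345, 398 and 429 CPM in wild-type libraries. The groups were separate, with knockout replicate 1 the highest and wild-type replicate 1 the lowest of the 6 libraries. The log2 fold change was 1.08 (SE 0.13, 95% interval 0.75 to 1.41, adjusted p = 0.0013, edgeR), a 2.11-fold higher level. Its spread was wider than that of BAG3, with a coefficient of variation of 14.4% in knockout and 10.98% in wild-type libraries. HSPB1 (ENSG00000106211.10) lies on the plus strand of chromosome 7 from 76302673 to 76304295, and its counts were whole.

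The promoters of HSPB8 and HSPB1 are shown because both genes were higher and both hold a GAANNTTC pair, in capitals. In HSPB8 (chr12:119178681-119178930, plus strand) the pair lies from base -88 to -81, and another, not printed, lies from base 5 to 12 after the start. In HSPB1 (chr7:76302423-76302672, plus strand) the pair lies from base -182 to -175. A match to these letters does not show that a factor binds there.
HSPB8: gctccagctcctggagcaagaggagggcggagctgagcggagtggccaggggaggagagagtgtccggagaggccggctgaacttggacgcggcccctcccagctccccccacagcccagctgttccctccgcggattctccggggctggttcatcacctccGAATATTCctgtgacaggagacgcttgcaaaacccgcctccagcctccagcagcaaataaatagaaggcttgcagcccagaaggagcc
HSPB1: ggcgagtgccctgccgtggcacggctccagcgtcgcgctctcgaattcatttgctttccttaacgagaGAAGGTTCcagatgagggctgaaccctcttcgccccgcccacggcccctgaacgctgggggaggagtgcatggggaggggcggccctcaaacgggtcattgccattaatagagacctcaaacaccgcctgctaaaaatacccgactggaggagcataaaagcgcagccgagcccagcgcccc

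CRYAB, the alpha-B crystallin of lens and muscle, had the largest fold change of the 9 genes at the lowest level. It was at 3.98, 5.49 and 2.65 CPM in knockout libraries, against 0.235, 0.271 and 0.698 CPM in wild-type libraries. These levels rest on 75, 95 and 47 counts in knockout libraries and on 4, 5 and 12 counts in wild-type libraries. The groups were separate, and the lowest knockout value was 3.80 times the highest wild-type value. The log2 fold change was 3.32 (SE 0.40, 95% interval 2.48 to 4.15, adjusted p = 1.8e-06, edgeR), which ranks 13 among all tested genes. CRYAB reached the minimum count through the knockout libraries, so it had to differ to be tested at all, and the size of its fold change is uncertain. HSPB2, another small heat shock gene that lies within the bounds of CRYAB on the opposite strand of chromosome 11, had 0 counts in all libraries.

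CRYAB and HSPB8 are abundant in muscle, so muscle markers were read beside them. The 7 markers summed to between 112 and 128 CPM in knockout and between 54.5 and 75.2 CPM in wild-type libraries. ACTN2 made up nearly all of that and was called higher, at 119 ± 8.38 CPM in knockout and 63.7 ± 9.14 CPM in wild-type cells (adjusted p = 3.91e-06, edgeR). Of the other markers, MYH7, MYOD1, DES, ACTA1 and CKM had at most 15 counts in any library and were not tested. DES went the other way from ACTN2, with 0, 0 and 1 counts in knockout libraries and 14, 4 and 15 in wild-type libraries. TTN was at 2.45 ± 3.35 CPM in knockout and 0.465 ± 0.464 CPM in wild-type cells and was not called, with 6.32 CPM in knockout replicate 3 alone. The part of these markers in the levels of CRYAB and HSPB8 was not tested.

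**Figure D2:**
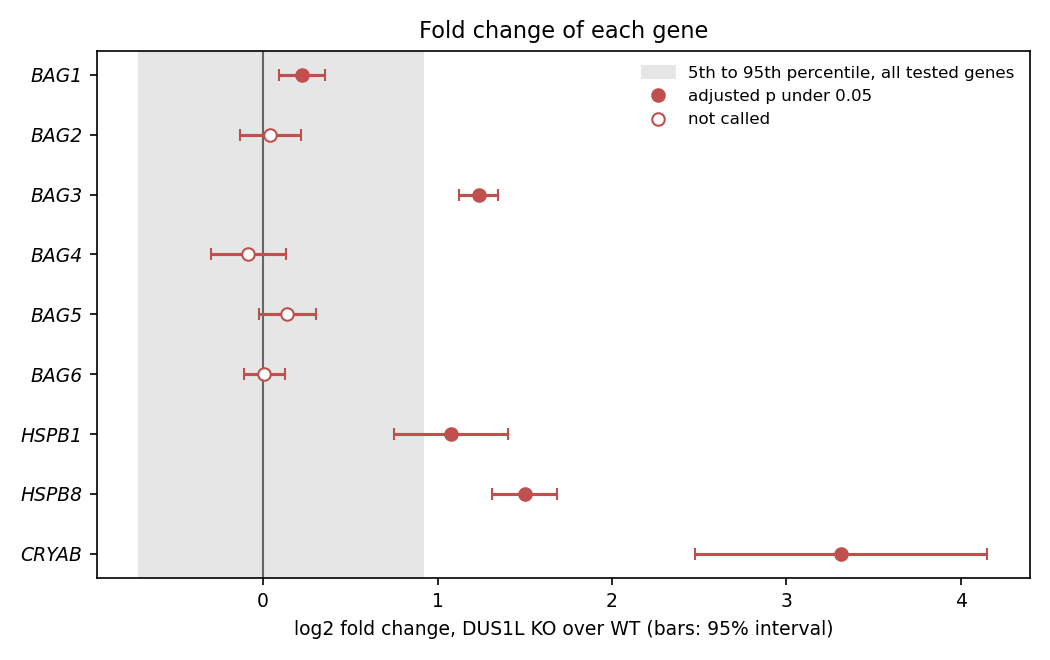
Log2 fold change of each gene in knockout over wild-type cells (horizontal axis) with its 95% interval. Filled points passed an adjusted p of 0.05 and open points did not, and the grey band spans the 5th to 95th percentile of all tested genes (-0.71 to 0.92). The points of BAG3, HSPB1, HSPB8 and CRYAB lie to the right of the band, the interval of HSPB1 reaches into it, and the other BAG genes lie within it.

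The wild-type libraries were not alike in the higher genes. Wild-type replicate 1, the library that lay apart on the second component, had the lowest wild-type level of BAG3, HSPB1, HSPB8 and CRYAB. Wild-type replicate 3 had the highest wild-type level of BAG3, HSPB1 and CRYAB. BAG1, also called higher, went the other way, with its highest wild-type level in replicate 1 and its lowest in replicate 2. Without wild-type replicate 1 the log2 fold changes were 1.19 for BAG3, 1.00 for HSPB1, 1.42 for HSPB8 and 3.06 for CRYAB, and all 4 were still called. CRYAB reached 3.95 without wild-type replicate 3, a linear fold change 1.56 times as high. No other library left out moved the fold change of any of the 9 genes by over 1.5 times. Knockout replicate 1 had the highest knockout level of BAG1, BAG3, HSPB1 and HSPB8.

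Levels were compared between genes as RPKM, CPM per kilobase of merged exons. Among the BAG genes BAG3 was at 182 ± 4.48 RPKM in knockout and 77.5 ± 4.52 RPKM in wild-type cells, followed by BAG6 at 33.04 ± 1.42 RPKM in knockout and 32.9 ± 2.17 RPKM in wild-type cells. BAG1 came next at 12.6 ± 0.61 RPKM in knockout and 10.8 ± 0.646 RPKM in wild-type cells. BAG5, BAG2 and BAG4 were lowest, at 7.25 ± 0.163, 5.94 ± 0.148 and 4.08 ± 0.231 RPKM in knockout and 6.59 ± 0.478, 5.76 ± 0.707 and 4.32 ± 0.466 RPKM in wild-type cells. In wild-type cells BAG5 was above BAG2 in each library, at 6.07, 6.69 and 7.01 RPKM against 5.065, 6.48 and 5.74 RPKM, although their ranges overlapped. The size of that gap depends on the length used. BAG3 thus made up 74.4% ± 0.391 of the summed RPKM of the 6 genes in knockout and 56.2% ± 0.408 in wild-type cells, and BAG6 made up 13.5% ± 0.33 in knockout and 23.9% ± 0.406 in wild-type cells. With the length of the MANE Select transcript, the reference transcript of each gene, BAG3 made up 67.0% in knockout and 47.4% in wild-type cells, so the level of these shares depends on the length used.

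**Figure D3:**
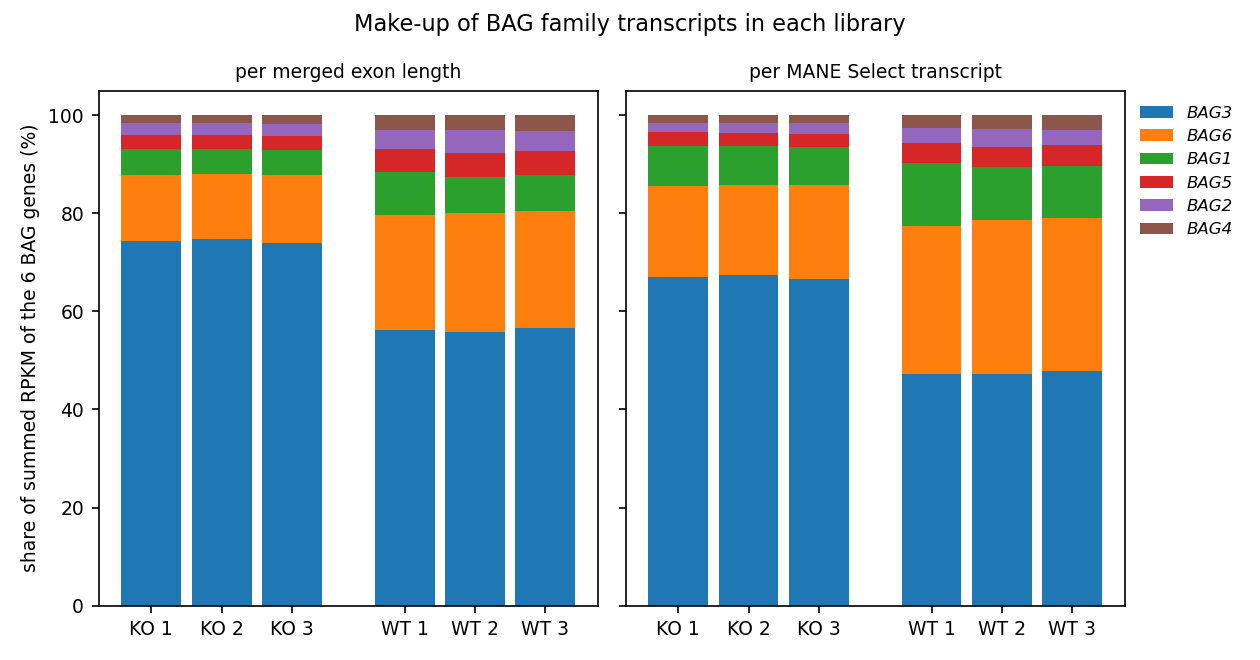
Share of each BAG gene in the summed RPKM of the 6 BAG genes (vertical axis, percent) in every library, knockout libraries left of wild-type libraries, with RPKM per merged exon length (left panel) and per MANE Select transcript (right panel). BAG3 takes a larger share in all 3 knockout libraries than in any wild-type library under both lengths.

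HSPB1 was the most abundant of the 3 small heat shock genes, at 508 ± 73.4 RPKM in knockout and 241 ± 26.4 RPKM in wild-type cells. HSPB8 was at 23.2 ± 2.65 RPKM in knockout and 8.22 ± 0.776 RPKM in wild-type cells, and CRYAB at 0.921 ± 0.324 RPKM in knockout and 0.0915 ± 0.0587 RPKM in wild-type cells. HSPB1 made up 95.4% ± 0.662 of their sum in knockout and 96.7% ± 0.125 in wild-type cells. The levels depend on the length used. Per MANE Select transcript HSPB1 was at 1062 RPKM in knockout and 502.8 RPKM in wild-type cells, and CRYAB at 5.22 and 0.5185 RPKM. The ratio of BAG3 to HSPB8 per merged exon length was 7.55, 8.85 and 7.33 in knockout libraries, against 9.97, 8.89 and 9.53 in wild-type libraries. Per MANE Select transcript it was 4.19, 4.916 and 4.07 in knockout libraries, against 5.54, 4.935 and 5.29 in wild-type libraries. These ratios did not overlap, but the highest knockout and lowest wild-type ratios were nearly equal, at 8.85 and 8.89 per merged exon length. Both partners were higher in knockout cells, and the difference between the ratios was not tested. The sum of the HSP70 genes HSPA8, HSPA1A and HSPA1B over BAG3 was 19.2 ± 1.4 in knockout and 14.45 ± 0.781 in wild-type cells per merged exon length, but 24.96 ± 1.45 in knockout and 24.35 ± 1.72 in wild-type cells per MANE Select transcript, so no direction is read from it.

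Of the 8 other small heat shock genes, 7 had too few counts to be tested. HSPB2 had 0 counts in every library, CRYAA had 0 after rounding (0.24 estimated counts in 1 knockout library), and HSPB3, HSPB6, HSPB7, HSPB9 and ODF1 had at most 17 counts in any library. HSPB11, the tested one, listed under its current symbol IFT25 and better known as a subunit of intraflagellar transport, was called lower at 27.8 ± 3.27 CPM in knockout and 37.6 ± 1.95 CPM in wild-type cells (log2 fold change -0.44, adjusted p = 0.000537, edgeR).

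The HSP70 chaperones that BAG proteins act on included 4 higher and 0 lower of 7 tested genes, with a median log2 fold change of 0.61. Over all tested genes 20.5% were called higher and 20.7% lower. The lists were chosen with earlier results known, so nothing is read from the counts of this or the following lists. The constitutive HSPA8 was at 5806 ± 198 CPM in knockout and 3791 ± 179 CPM in wild-type cells (adjusted p = 7.31e-09, edgeR). The stress-inducible HSPA1A was at 4076 ± 522 CPM in knockout and 583.6 ± 129.8 CPM in wild-type cells (adjusted p = 0.000767), though its near-identical copy HSPA1B makes the split of reads between them uncertain. HSPA6, another stress-inducible gene, was at 233 ± 53.5 CPM in knockout and 13.8 ± 10.4 CPM in wild-type cells (adjusted p = 0.00534), and it was not called with a replicate block (adjusted p = 0.0607). Nucleotide exchange factors outside the BAG family had 5 higher and 2 lower of 8 tested genes (median 0.26). HSPH1 and HSPA4L, of the HSP110 group, had log2 fold changes of 1.23 and 1.13, close to that of BAG3. GRPEL2, which serves mitochondrial HSP70, was higher by 0.50, and HYOU1, which serves the chaperone of the endoplasmic reticulum, was lower with a log2 fold change of -0.35. The other gene called lower, SIL1, was not called without knockout replicate 2 or wild-type replicate 2 (adjusted p = 0.0764 and 0.0624), which left 1 lower gene.

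Partners of BAG3 in selective autophagy had 9 higher and 3 lower of 16 tested genes (median 0.23), beside 20.5% higher and 20.7% lower over all tested genes. AMOTL2, a regulator of YAP that binds BAG3, was higher by 1.14 on the log2 scale (SE 0.06, adjusted p = 7.87e-12, edgeR). The autophagy receptor SQSTM1 was at 2213 ± 36.9 CPM in knockout and 1224 ± 22.2 CPM in wild-type cells, and the autophagosome protein gene MAP1LC3B was at 280.3 ± 5.1 CPM in knockout and 168 ± 14.3 CPM in wild-type cells. DNAJB6, a cochaperone found in the same complex, was higher by 0.36. Of the 3 lower genes, HDAC6, a deacetylase that carries ubiquitinated protein to the aggresome, had the largest fold change, at 21.04 ± 0.806 CPM in knockout and 31.6 ± 1.1 CPM in wild-type cells (log2 fold change -0.59, adjusted p = 1.72e-05, edgeR). STUB1, which encodes the ubiquitin ligase CHIP that marks BAG3 clients, was at 74.6 ± 2.42 CPM in knockout and 95.6 ± 5.74 CPM in wild-type cells (log2 fold change -0.36, adjusted p = 0.000104), and the autophagosome gene GABARAP had a log2 fold change of -0.25. SYNPO2 and FLNC, muscle partners of BAG3, were not tested for low counts.

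Partners of BAG6 had 2 higher and 2 lower of 10 tested genes (median -0.02), close to the 20.5% higher and 20.7% lower over all tested genes. GET4, which forms a complex with BAG6 and UBL4A, was at 104 ± 12.8 CPM in knockout and 66.2 ± 1.14 CPM in wild-type cells (log2 fold change 0.66, adjusted p = 1.17e-06, edgeR), and SGTA, which hands over clients, was higher by 0.26. UBL4A and GET1 were lower with log2 fold changes of -0.20 and -0.31. The number called lower was 0 without knockout replicate 1, knockout replicate 2 or wild-type replicate 2 and when counts were scaled by library size only, and 1 without knockout replicate 3, without wild-type replicate 3 and with DESeq2.

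Among partners of BAG1, BAG2, BAG4 and BAG5, 1 was higher and 2 were lower of 7 tested genes (median -0.18). The shares over all tested genes were 20.5% higher and 20.7% lower. The higher gene was HSPA8 and the lower genes were STUB1, counted above, and TNFRSF1A, the receptor that BAG4 binds, at 137 ± 6.12 CPM in knockout and 206 ± 5.84 CPM in wild-type cells (log2 fold change -0.59, adjusted p = 3.47e-08, edgeR). The apoptosis inhibitor BCL2, a partner of BAG1, was at 5.96 ± 0.195 CPM in knockout and 7.73 ± 0.486 CPM in wild-type cells (adjusted p = 0.057).

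Of the heat shock factors, HSF1, HSF2 and HSF4 were tested and not called. HSF1, the main activator of heat shock genes, was at 127 ± 11.7 CPM in knockout and 116 ± 7.39 CPM in wild-type cells (log2 fold change 0.14, adjusted p = 0.108, edgeR), and HSF2 was at 24.3 ± 0.591 CPM in knockout and 23.3 ± 2.49 CPM in wild-type cells (adjusted p = 0.633). HSBP1, a small protein that binds HSF1, was lower at 153 ± 6.11 CPM in knockout and 186 ± 12.3 CPM in wild-type cells (adjusted p = 0.000632). Of 4 tested genes in this list 0 were higher and 1 was lower, with 1 higher when knockout replicate 2 was left out or counts were scaled by library size only, and 2 lower without wild-type replicate 1. Kinases that act on HSPB1 had 2 higher and 1 lower of 7 tested genes (median 0.10). For both lists the shares over all tested genes were 20.5% higher and 20.7% lower. MAPKAPK2, its main kinase, was higher by 0.17 and PRKD2 by 0.25 on the log2 scale, but neither was called without knockout replicate 3 (adjusted p = 0.0821 and 0.0503), and PRKD1 was lower with a log2 fold change of -0.43.

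**Figure D4:**
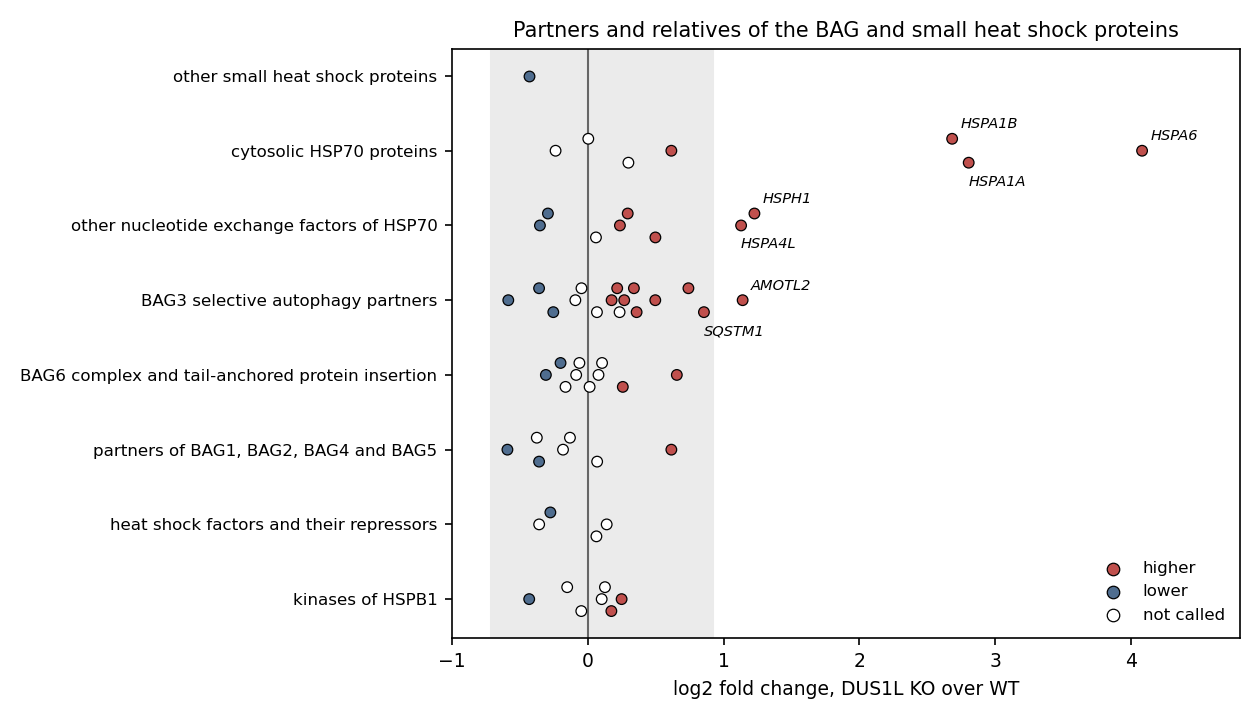
Log2 fold change in knockout over wild-type cells (horizontal axis) of each tested gene in 8 lists of partners and relatives (vertical axis). Red points were called higher, blue points lower and white points not called, and the grey band spans the 5th to 95th percentile of all tested genes. HSPA6, HSPA1A, HSPA1B, HSPH1, HSPA4L and AMOTL2 lie to the right of the band.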

How the data were processed

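The authors deposited expected counts per gene for all 6 libraries in a single table. The submitters' processing notes name GRCh38 (hg38). The aligner, counting tool, strand setting and annotation release are not given in the sources used here. It is thus not known whether reads of genes that overlap on opposite strands were told apart. Symbols came from GENCODE release 44, which matched 62541 of 63086 gene identifiers. Groups follow the sample titles. Counts were rounded, filtered with filterByExpr (minimum count 10), scaled by TMM and compared by a robust quasi-likelihood fit in edgeR 4.0.16 (R 4.3.3), two-sided, with Benjamini-Hochberg adjustment over 16046 genes and a threshold of 0.05. The standard error is the fold change divided by the root of its F statistic. A test against 1.5-fold used glmTreat. The procedure was tested on simulated counts. Alternatives were DESeq2 1.42.0, limma 3.58.1, other scalings, no filter, counts not rounded, a replicate block and each library left out. Since separate cultures are not described, p-values measure only the spread among the libraries. The level given for 3 counts covers counting error only.

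Members, lists and tests were chosen with earlier results of these data known. All 9 members are named. Tested neighbours that overlap a member or start close by are named too, with up to 4 genes with the smallest p-values per list, marker genes and the 5 genes most like BAG3. SIL1, HDAC6 and GABARAP fall outside this rule and were chosen after their values were seen.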

Additional observations from a re-analysis of the deposited data

How the results depend on the processing

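Of the 9 genes, 5 were called higher in the report and under DESeq2, limma-voom, other scalings, no filter and unrounded counts, and between 4 and 5 with 1 library left out. BAG3, HSPB1, HSPB8 and CRYAB were called under every alternative run, with log2 fold changes from 1.19 to 1.28, 0.96 to 1.16, 1.42 to 1.59 and 3.03 to 3.95. CRYAB reached the minimum count through the knockout libraries, so its repeated calls are not independent support. BAG1 was lost without knockout replicate 1 or wild-type replicate 2 (range over left-out libraries 0.18 to 0.27). The uncalled BAG2 ranged from -0.042 to 0.13 and BAG6 from -0.0457 to 0.0437 with a library left out, below 0 without wild-type replicate 1 in both and, for BAG6, also without knockout replicate 1 or 3, and BAG6 was at -0.0058 with no filter. The cause was not tested. Over all genes, 3288 were higher and 3320 lower, against 371 and 204 past 1.5-fold. Replicate numbers did not pair the libraries (correlations of same-numbered deviations -0.0296, -0.0014 and 0.0255). With a replicate block, 3122 genes were higher and 3119 lower, 5 of the 9 genes were still called, CRYAB with a log2 fold change of 3.29 and HSPB1 with an adjusted p of 0.0161 (edgeR). CRYAB is limited by depth, at 4 to 12 counts in wild-type libraries.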

Other observations

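The 5 protein-coding genes whose profile was most like that of BAG3 were HSPH1, AOC3, ZFP36, PGF and TUFT1. Likeness was the root mean square difference of log2 CPM over the 6 libraries, each gene centred on its wild-type mean, among 13496 genes. HSPH1, the HSP110 chaperone, was closest, with a difference of 0.0367 and a log2 fold change of 1.23. AOC3, an amine oxidase gene, was at 0.0575 and at a far lower level, with 4.96 ± 0.0619 CPM in knockout and 2.03 ± 0.0741 CPM in wild-type cells. ZFP36, which encodes an mRNA decay factor, was at 0.0733, the growth factor gene PGF at 0.0762 and the tuftelin gene TUFT1 at 0.078. HSPH1 and AOC3 thus differ widely in level, with mean CPM above that of 99.15% and 23.8% of tested genes.

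Reads divided among genes touched 3 of the 9 members. BAG2 had fractional counts in all 6 libraries, and BAG4 and BAG6 in 1 library each. LSM1, which starts 197 bases from BAG4 on the opposite strand and overlaps it, was at 32.4 ± 2.13 CPM in knockout and 31.3 ± 2.34 CPM in wild-type cells and was not called.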
